A study of Mus musculus with 16 samples.

Results

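The comparison described here sets double-positive (DP) cancer cells, which carried both the mScarlet and the GFP signal, against GFP-only (GFP) cancer cells from mouse pancreatic tumours. The members are the 4 libraries titled as double-positive and the 4 titled as GFP, 8 of 16 libraries in all, and the transcriptome was compared over 15963 genes. All groups came from the same stock, KPC pancreatic ductal adenocarcinoma (PDAC) cells called 7TCF-eGFP/Porcn-DMA, grown as orthotopic tumours in the mouse pancreas, dissociated and sorted by flow cytometry. The 8 other libraries were mScarlet-only cells (mScarlet, 4 libraries) and double-negative cells (DN, 4 libraries). The 7TCF-eGFP construct makes green fluorescent protein under TCF sites and so reads out WNT/beta-catenin activity. Both DP and GFP cells had passed the gate for this reporter and differed by the mScarlet gate. The design names a WNT-responsive, a WNT-secreting and a double WNT-responsive and secreting population, but no label ties mScarlet to a function in words, and no source used here gives the make-up of Porcn-DMA. The design gives 4 mice a group. The labels do not give the age or strain of the host mice, or whether the library number, 1 to 4, marks a mouse. All cells derive from a single engineered stock, which limits the model to that line. The comparison asks which transcripts go with the mScarlet signal among cells whose WNT reporter is on.

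WNT proteins are secreted lipid-modified ligands. Porcn, a membrane-bound acyltransferase, adds the lipid, Wls carries the modified protein to the cell surface, and Frizzled receptors with Lrp5 or Lrp6 receive it, which stabilises beta-catenin and lets it act with TCF/LEF factors at target genes. In pancreatic cancer, tumour cells range from a classical state, with gastric and intestinal secretory genes, to states with more mesenchymal or basal genes.

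The libraries held 80647185 to 87909931 counts in DP and 82118426 to 100358451 in GFP. Every level below is in CPM, counts scaled to a common library total, after TMM scaling, which corrects that total for composition, and levels are compared within a gene, not between genes. Keratins of the epithelium marked all 8 libraries: Krt19 was at 8700 to 12000 CPM in DP and 5770 to 9780 CPM in GFP. Markers of other cells were also detected. Fibroblast and acinar markers were higher in every GFP library than in every DP library, whereas neutrophil markers had a positive median log2 fold change, DP over GFP. GFP library 4 had the highest level of acinar markers, mostly digestive enzymes, and the highest of fibroblast markers among the 8, and GFP library 1 had the highest level of macrophage and red blood cell markers. Values without these libraries are given beside some, not all, of the results that moved with them. In sorted bulk RNA, fewer cells of a type cannot be told apart from less RNA per cell.

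**Figure D1:**
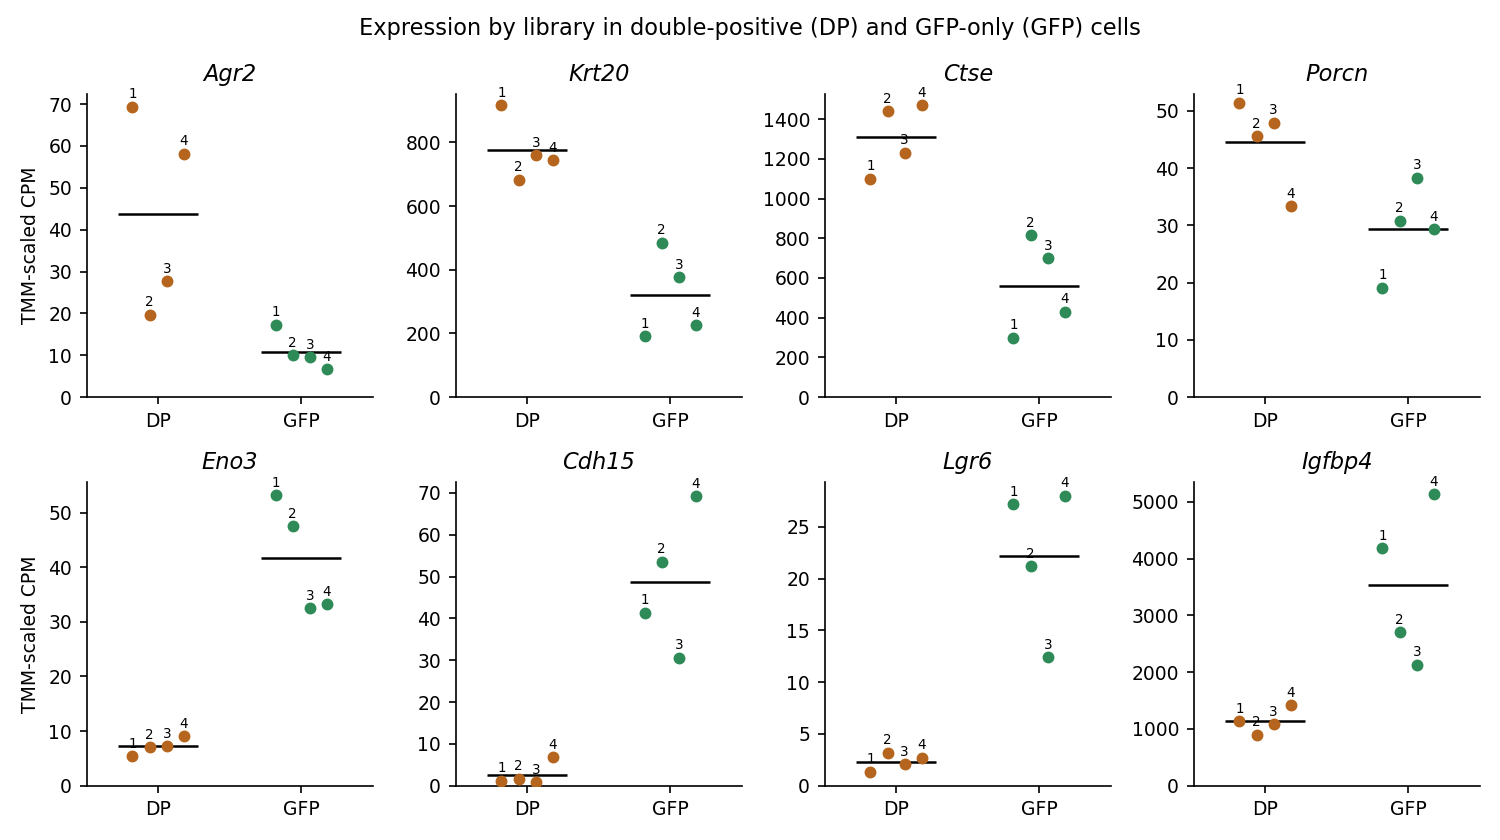
Expression of 8 genes in the 4 DP and the 4 GFP libraries, in TMM-scaled CPM on linear axes that start at 0; points are libraries with their number, lines are group means. Agr2, Krt20 and Ctse lie higher and Eno3, Cdh15, Lgr6 and Igfbp4 lower in all 4 DP libraries than in all 4 GFP libraries, and DP library 4 at 33.4 CPM lies below GFP library 3 at 38.3 CPM for Porcn.

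Agr2, a protein disulfide isomerase of secretory cells that helps fold mucins, was higher in DP. Cdh15, the cadherin of muscle precursors, and Eno3, the enolase of muscle, were lower. Agr2 was at 69.4, 19.7, 27.7 and 58.2 CPM in DP libraries 1 to 4, against 17.3, 10.0, 9.55 and 6.66 CPM in GFP libraries 1 to 4. The lowest DP library was still above the highest GFP library, although the spread among DP libraries was wide. The log2 fold change, DP over GFP, was 2.0 (SE 0.41, adjusted p = 0.0451 by edgeR). Cdh15 was at 1.19, 1.69, 0.774 and 6.78 CPM in DP and at 41.4, 53.6, 30.6 and 69.2 CPM in GFP. DP library 4 was the highest of its group and still far below every GFP library, and the log2 fold change was -4.22 (SE 0.62, adjusted p = 0.0212 by edgeR). Eno3 was at 5.45, 7.07, 7.19 and 9.04 CPM in DP and at 53.2, 47.5, 32.5 and 33.2 CPM in GFP. It had the lowest adjusted p of the comparison, with a log2 fold change of -2.53 (SE 0.3, adjusted p = 0.00502 by edgeR). In GRCm38, Agr2 lies on chromosome 12 from 35992925 to 36004081, Cdh15 on chromosome 8 from 122848374 to 122867397 and Eno3 on chromosome 11 from 70653125 to 70662513. The Eno3 span overlaps that of Pfn1, without a shared exon. Reads of the 2 genes cannot be told apart where they overlap, since no use of strand is stated. Eno3 kept its call in 18 of 20 alternative settings, Cdh15 in 13 and Agr2 in 7. None of the 3 changed direction, which was hardly possible with groups that did not overlap.

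Across the transcriptome, 71 of 15963 genes passed an adjusted p of 0.05 and are termed called: 24 were higher in DP (0.15% of genes tested) and 47 lower (0.294%), 0.445% together. At an unadjusted p under 0.05 there were 2549. In each of the 71 genes the 4 DP libraries did not overlap the 4 GFP libraries, which was so for 8.1% of all genes tested (3.52% higher and 4.58% lower in DP). The group with more expression averaged 10 CPM or more in 67 of the 71. The number of calls rested on single libraries. Only Eno3 was called without DP library 1, DP library 2, GFP library 1 or GFP library 4 (1 call each), and no gene was called by edgeR without DP library 3 (2143 at an unadjusted p under 0.05). Without GFP library 2 there were 189 calls, without GFP library 3 323, and without DP library 4 71, of which 39 were among the first 71. None of the 71 changed direction in any of these fits. Since their groups did not overlap, leaving out a library could hardly reverse a sign, so this is no test of stability.

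**Figure D2:**
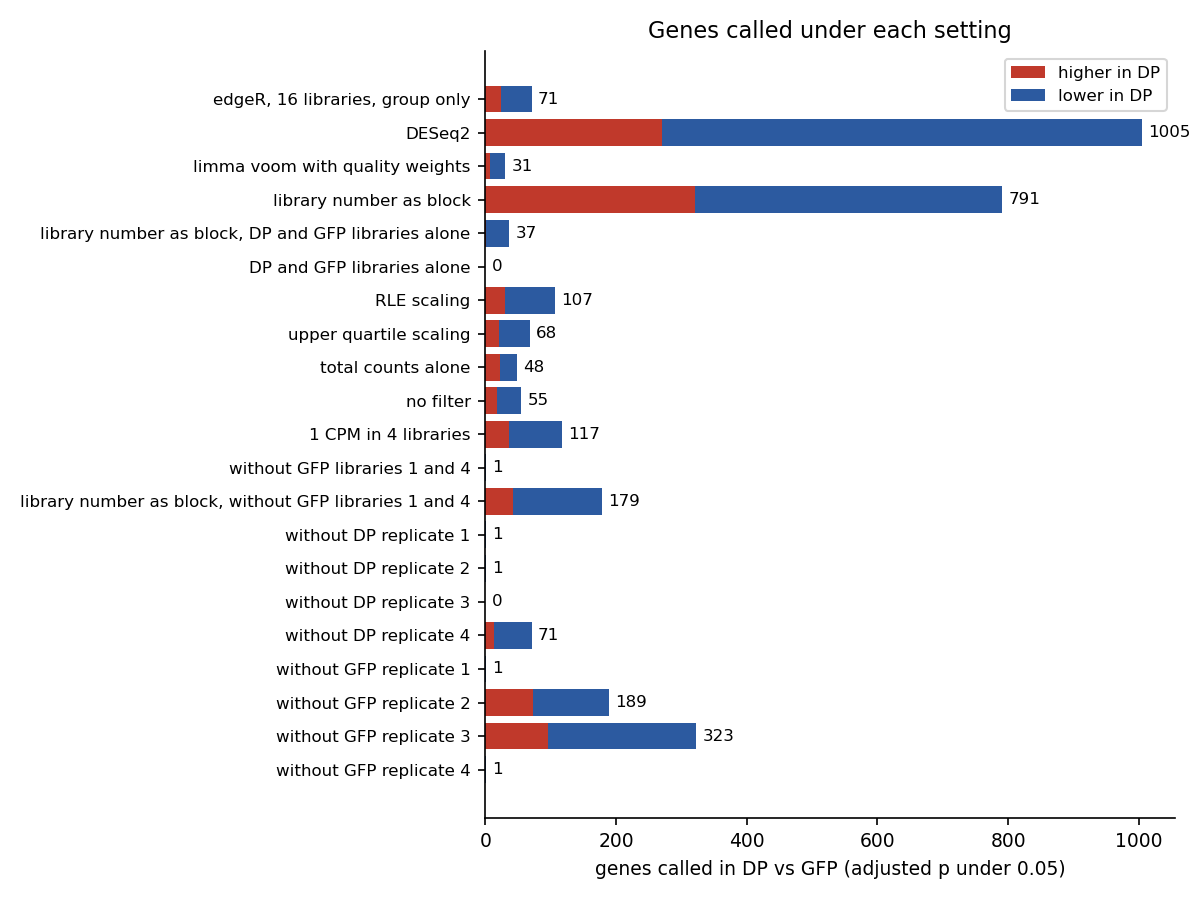
Number of genes called in DP vs GFP (adjusted p under 0.05) under each analysis setting, split into higher in DP (red) and lower in DP (blue), with the total beside each bar. The count is 71 with edgeR on 16 libraries, 791 with the library number as a block and 1005 with DESeq2, and it is 0 or 1 without any one of DP libraries 1 to 3 or GFP libraries 1 and 4.

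Among called genes with at least 10 CPM in DP, the largest rises after Agr2 included several genes of secretory and absorptive epithelium. Fam3b, a secreted cytokine-like protein of pancreatic islets and gut, was at 21.3, 14.1, 16.2 and 12.5 CPM in DP and 2.83, 6.72, 5.87 and 1.87 CPM in GFP (log2 fold change 1.89 with SE 0.37, adjusted p = 0.0399 by edgeR). Prap1, a secreted protein of the intestinal lining, was at 287, 276, 324 and 217 CPM in DP and 44.1, 122, 125 and 104 CPM in GFP (log2 fold change 1.48 with SE 0.28, adjusted p = 0.0399 by edgeR). Both genes were lowest in GFP libraries 4 or 1, so the gap was smaller for GFP libraries 2 and 3. Krt20, a keratin of mature gut epithelium, was at 917, 683, 759 and 743 CPM in DP and 191, 485, 376 and 225 CPM in GFP (log2 fold change 1.28 with SE 0.24, adjusted p = 0.039 by edgeR). Ctse, an aspartic protease of gastric epithelium, was at 1100, 1440, 1230 and 1470 CPM in DP and 299, 817, 698 and 430 CPM in GFP (log2 fold change 1.22 with SE 0.25, adjusted p = 0.0451 by edgeR). For Krt20 and Ctse too, GFP libraries 2 and 3 were closer to DP than GFP libraries 1 and 4. Over 20 alternative settings the log2 fold change ran from 0.76 to 1.56 for Krt20 and from 0.8 to 1.47 for Ctse.

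The other 6 of the 10 largest rises had log2 fold changes from 1.27 to 1.51. Rbp2, which carries retinol in enterocytes, was at 109 to 201 CPM in DP and 45.8 to 68.4 CPM in GFP. Il18, an epithelial cytokine, was at 42.1 to 66.7 CPM in DP and 20.1 to 30.1 CPM in GFP, with a narrow spread in GFP. Mal, a protein of apical membrane traffic, was at 80.8 to 99.6 CPM in DP and 15.8 to 52.8 CPM in GFP. Arg2, the mitochondrial arginase, was lower in abundance, at 7.64 to 13.4 CPM in DP and 3.04 to 4.84 CPM in GFP. Mfsd4a, a member of the major facilitator family, was at 31.8 to 42.0 CPM in DP and 8.46 to 17.0 CPM in GFP, and Tmem117, a transmembrane protein, at 18.3 to 28.5 CPM in DP and 5.07 to 11.2 CPM in GFP. Each of these pairs of ranges was separate, which the rule that chose the genes required. The log2 fold change of Mal ran from 0.99 to 1.77 over 20 alternative settings. Exons of Mfsd4a overlap those of Elk4, exons of Arg2 those of Vti1b, and exons of Prap1 those of Fuom, so their reads could be shared. Il18 overlaps Bco2 in its span, without a shared exon. Chosen after its values were seen, Nuggc, a nuclear GTPase of germinal centre B cells, was detected at 0.899, 1.7, 0.484 and 0.35 CPM in DP (290 counts) and had 0 counts in the 4 GFP libraries. Against a floor of 3 counts over the GFP group it was at least 96.6-fold higher (edgeR adjusted p = 0.0215), at a low level in DP.

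The gene lists described below hold known members of a pathway or programme. Each is given by its counts, to be read beside all genes tested (0.445% called, median log2 fold change -0.04, 47% above 0). Lists and members were chosen with earlier results of these data known, so their counts and medians describe and do not test. Only members that passed the expression filter were tested, and a scarce member can pass it through the group where it is higher. Classical PDAC and gastric-type genes leaned to DP: of 29 tested, 3 were called higher (Agr2, Krt20 and Ctse), 0 lower, 28 had a log2 fold change above 0, and the median was 0.87. Without GFP libraries 1 and 4 the median was 0.61. Of 21 mucus and goblet cell genes, 1 was called higher (Agr2) and 19 lay above 0, with a median of 1.27, against 0.84 without GFP libraries 1 and 4. Enterocyte genes had a median of 1.04 over 24 genes, 18 of them above 0 and none called, and of 0.6 without GFP libraries 1 and 4. The most abundant enterocyte genes, Cdhr5 and Cdhr2, encode cadherins that link the tips of microvilli. Cdhr5 was at 414, 334, 337 and 236 CPM in DP and 128, 187, 245 and 91.8 CPM in GFP, with DP library 4 below GFP library 3 (log2 fold change 1.02 with SE 0.31, adjusted p = 0.118 by edgeR). Cdhr2 was at 295, 274, 299 and 117 CPM in DP and 125, 121, 140 and 59.2 CPM in GFP, with library 4 the lowest of each group (log2 fold change 1.15 with SE 0.39, adjusted p = 0.155 by edgeR).

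Epithelial adhesion genes and transcription factors of endoderm and pancreas had smaller medians and no calls. The adhesion genes had a median of 0.3 over 23 genes, and their level, the mean log2(CPM + 1) over the list, was 5.37 to 5.6 in DP and 4.65 to 6.09 in GFP, so the groups overlapped. Krt19 had a log2 fold change of 0.3 (SE 0.2, adjusted p = 0.481 by edgeR) and Krt8, its usual partner with Krt18 in simple epithelium, 0.21 (SE 0.18, adjusted p = 0.607 by edgeR), which without GFP libraries 1 and 4 was -0.03. The transcription factors had a median of 0.41 over 19 genes, which was 0.13 without GFP libraries 1 and 4. Elf3, an epithelial ETS factor, was at 2420, 3730, 3230 and 2810 CPM in DP and 895, 2920, 3550 and 2520 CPM in GFP, so that GFP library 1 alone stood low. Sox9, a ductal progenitor factor, was at 191 to 381 CPM in DP and 93.7 to 338 CPM in GFP. Neither differed past the threshold (log2 fold change 0.3, SE 0.34, edgeR adjusted p = 0.721 for Elf3, and 0.4, SE 0.32, edgeR adjusted p = 0.585 for Sox9).

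**Figure D3:**
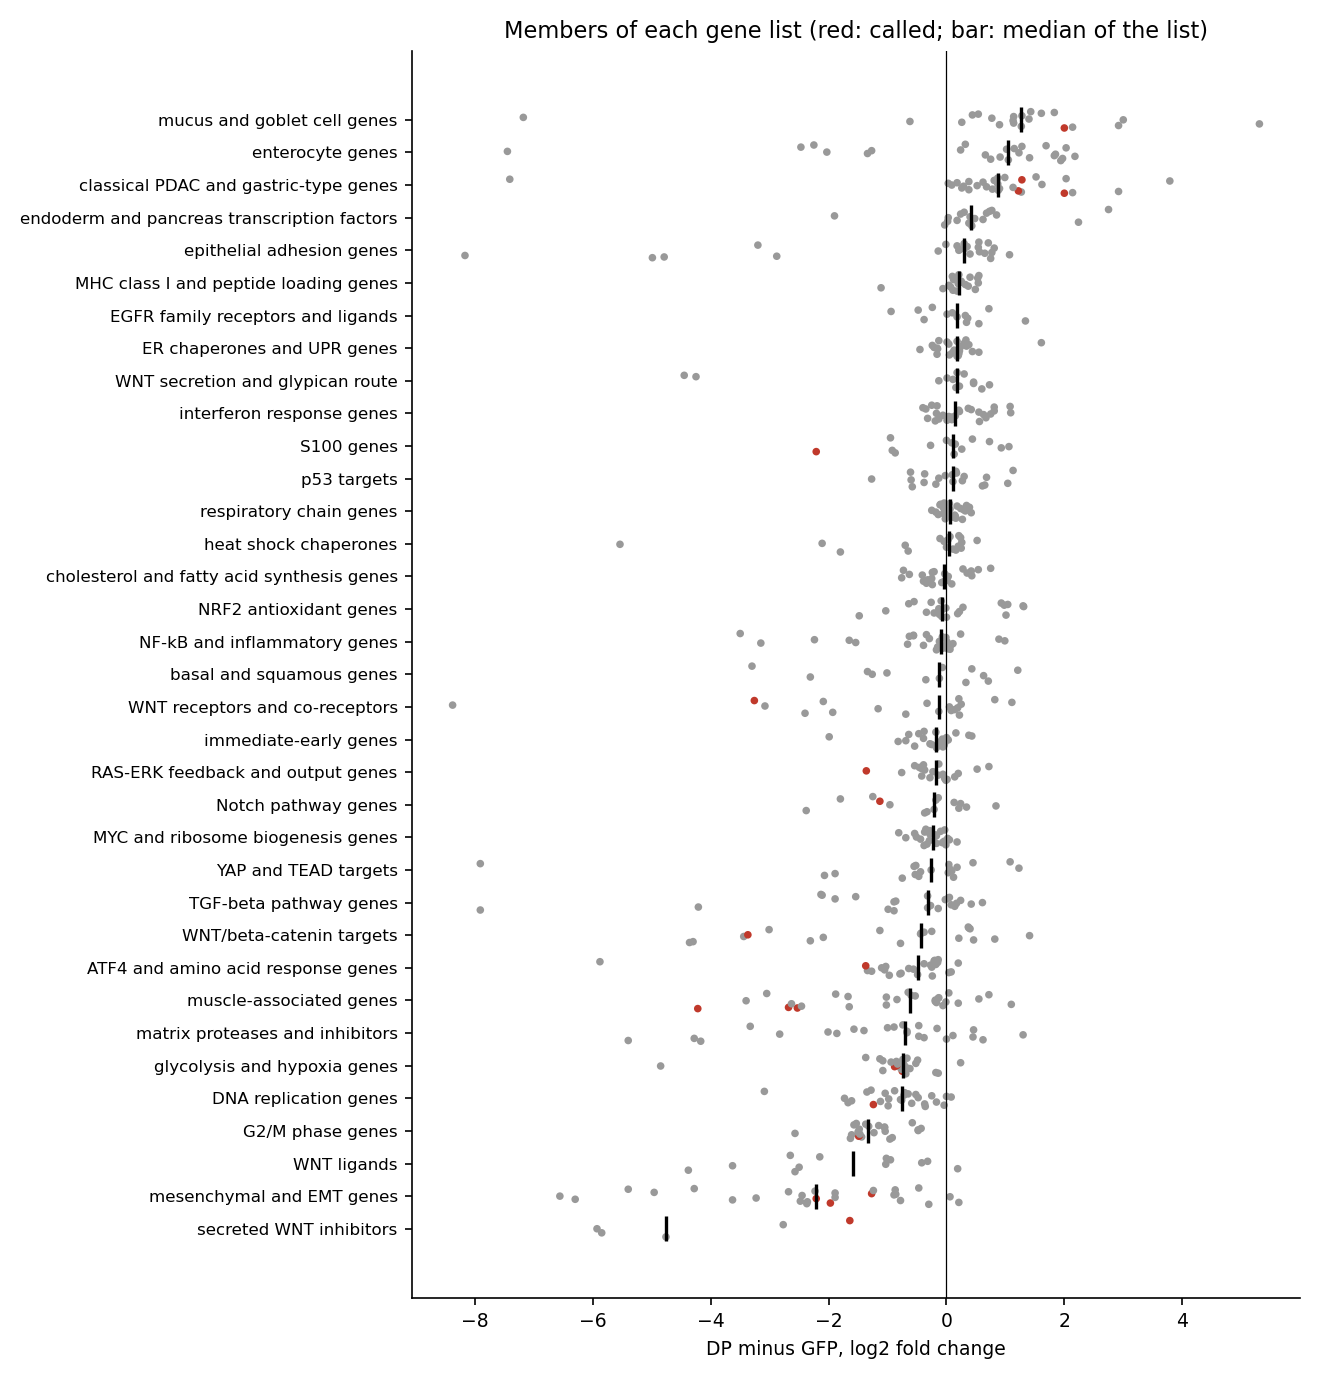
Log2 fold change, DP minus GFP, of each tested member (points) of 35 gene lists of cell programmes, with red points called at an adjusted p under 0.05 and the bar at the list's median; points are spread vertically within a row only to be seen. Mucus, enterocyte and classical PDAC genes have the highest medians (1.27, 1.04 and 0.87) and secreted WNT inhibitors, mesenchymal genes and WNT ligands the lowest (-4.76, -2.21 and -1.59, and -2.5, -1.84 and -0.92 without GFP library 4).

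WNT pathway genes, taken from ligand to target, showed few calls and all of them lower in DP. Of 19 WNT ligands, 12 passed the expression filter and were tested. Of these, 0 were called and 11 had a negative log2 fold change. Their median of -1.59 was -0.77 without GFP libraries 1 and 4, -0.92 without GFP library 4 and -1.91 without GFP library 1. Scarce ligands can pass the filter through the group where they are higher, so the sign count and median are no test of direction. Wnt7b, the most abundant in counts, was at 205, 318, 287 and 303 CPM in DP and 272, 317, 481 and 319 CPM in GFP (log2 fold change -0.32 with SE 0.18, adjusted p = 0.417 by edgeR), with overlapping groups. Wnt10a was at 91.7, 44.6, 53.5 and 78.5 CPM in DP and 214, 103, 125 and 103 CPM in GFP, lower in each DP library than in any GFP library (log2 fold change -1.02 with SE 0.3, adjusted p = 0.105 by edgeR). The most negative values belonged to scarce ligands: Wnt3, named after its value was seen, averaged 0.00908 CPM in DP and 0.215 CPM in GFP (log2 fold change -4.38). Of 13 genes of WNT secretion, 0 were called, with a median of 0.18. Porcn was at 51.4, 45.6, 47.9 and 33.4 CPM in DP and 19.1, 30.8, 38.3 and 29.3 CPM in GFP, higher in DP in each number (log2 fold change 0.6 with SE 0.23, adjusted p = 0.206 by edgeR). It did not pass the threshold, and counts per gene do not tell the endogenous gene from any Porcn sequence in the Porcn-DMA construct. Wls was at 115, 64.1, 85.1 and 97.9 CPM in DP and 70.5, 80.9, 84.5 and 88.7 CPM in GFP (log2 fold change 0.16 with SE 0.21, adjusted p = 0.775 by edgeR).

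Among receptors, Lgr6, a receptor for the R-spondins that amplify WNT signals, was at 1.34, 3.18, 2.06 and 2.71 CPM in DP and 27.2, 21.2, 12.4 and 28 CPM in GFP. It fell by 3.26 on the log2 scale (SE 0.59, adjusted p = 0.0368 by edgeR) and was the only call among 19 receptors and co-receptors, whose median was -0.13. Lgr5, its stem cell relative, was scarce, with 0.0 to 0.411 CPM in DP and 0.251 to 1.63 CPM in GFP (edgeR adjusted p = 0.588). Of 13 secreted WNT inhibitors, 5 passed the expression filter, and all 5 had negative log2 fold changes. Igfbp4, an IGF-binding protein that also restrains WNT receptors, was the 1 called. Igfbp4 was at 1140, 897, 1080 and 1420 CPM in DP and 4190, 2700, 2130 and 5140 CPM in GFP, with all GFP libraries above all DP libraries (log2 fold change -1.64 with SE 0.27, adjusted p = 0.0331 by edgeR). Over 20 alternative settings the log2 fold change of Igfbp4 ran from -1.82 to -1.08. Sfrp1, Sfrp2 and Sfrp4 of the inhibitor list are known products of fibroblasts, whose markers were higher in GFP, as given below. The median of the list was -4.76, which was -2.5 without GFP library 4 and -2.93 without GFP libraries 1 and 4. The part of fibroblast RNA in these values was not tested.

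Of 20 WNT/beta-catenin targets tested, 1 was called. Apcdd1, a membrane-bound WNT antagonist that is itself a target, was at 0.986, 1.67, 0.242 and 0.666 CPM in DP and 14.7, 6.72, 5.78 and 9.74 CPM in GFP (log2 fold change -3.37 with SE 0.62, adjusted p = 0.0368 by edgeR). The median of the list was -0.44, with 13 members below 0 and 7 above. Some classic feedback targets were scarce and lay below the floor of 3 counts, 0.0284 to 0.0388 CPM in a library, in some libraries and above it in others. Axin2, a scaffold of the beta-catenin destruction complex, was at 0.423, 0.0, 0.0 and 0.508 CPM in DP and 0.188, 0.0, 0.0246 and 1.39 CPM in GFP (edgeR adjusted p = 0.891), and Lef1 did not exceed 0.0627 CPM in DP or 0.454 CPM in GFP (edgeR adjusted p = 0.581). Their direction cannot be read at such low and uneven levels. Nkd1, a Dishevelled inhibitor, was at 0.0 to 1.16 CPM in DP and 5.03, 1.76, 2.33 and 33.6 CPM in GFP (log2 fold change -4.36 with SE 1.88, adjusted p = 0.271 by edgeR; -2.52 without GFP library 4), with most of the GFP signal in library 4. Tnfrsf19, a target of the TNF receptor family, was detected in DP in library 4 alone, at 1.3 CPM, and was at 1.69, 1.8, 2.41 and 8.24 CPM in GFP (log2 fold change -3.44 with SE 2.07, adjusted p = 0.458 by edgeR). Rnf43, the ubiquitin ligase that removes Frizzled from the surface, was higher in DP in each number, at 17.9, 5.25, 17.1 and 7.8 CPM against 11.8, 4.75, 9.76 and 0.841 CPM in GFP, but did not pass the threshold (log2 fold change 0.82 with SE 0.63, adjusted p = 0.576 by edgeR).

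Several secreted matrix proteins were called lower in DP, among them Eln, with the most negative log2 fold change of all calls. Eln, which encodes elastin, was at 1.83, 3.71, 2.28 and 1.69 CPM in DP and 19.7, 47.8, 17.9 and 939 CPM in GFP. Its log2 fold change of -6.75 (SE 1.38, adjusted p = 0.0451 by edgeR) was carried by GFP library 4. Without that library it was -3.57 and the edgeR adjusted p was 0.0783. Fbln1, a matrix glycoprotein of fibroblasts, was at 3.39, 5.31, 2.5 and 7.07 CPM in DP and 25.7, 34.9, 17.7 and 447 CPM in GFP (log2 fold change -4.85 with SE 0.95, adjusted p = 0.0399 by edgeR; -2.5 and 0.0713 without GFP library 4). Htra1, a secreted serine protease, was at 17.6, 11.3, 12.6 and 31.1 CPM in DP and 62.3, 89.7, 39.2 and 342 CPM in GFP (log2 fold change -2.88 with SE 0.6, adjusted p = 0.049 by edgeR; -1.8 and 0.0945 without GFP library 4). GFP library 4 held the highest value of all 3 genes. The other GFP libraries were also above every DP library, which the rule that chose the genes required.

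Angptl2, a secreted angiopoietin-like protein, was at 4.76, 3.37, 4.25 and 13.7 CPM in DP and 56.2, 48.0, 22.3 and 136 CPM in GFP (log2 fold change -3.33 with SE 0.61, adjusted p = 0.0368 by edgeR; -2.68 and 0.0783 without GFP library 4). Of 27 mesenchymal genes tested, 3 were called lower, 0 higher, and 25 had negative log2 fold changes, with a median of -2.21, against -1.04 without GFP libraries 1 and 4. Fn1, fibronectin, was at 423, 355, 307 and 362 CPM in DP and 3050, 663, 845 and 1110 CPM in GFP, with GFP library 1 far above the rest (log2 fold change -1.97 with SE 0.38, adjusted p = 0.0399 by edgeR; -1.28 and 0.0545 without GFP library 1). S100a4, a calcium-binding protein of motile and stromal cells, was at 10.1, 6.43, 10.5 and 13.1 CPM in DP and 57.1, 57.1, 24.4 and 47.2 CPM in GFP (log2 fold change -2.21 with SE 0.39, adjusted p = 0.0368 by edgeR). Itga5, the fibronectin receptor subunit, was at 59.3, 87.5, 83.0 and 88.5 CPM in DP and 222, 136, 120 and 290 CPM in GFP (log2 fold change -1.27 with SE 0.24, adjusted p = 0.0399 by edgeR; -0.68 without GFP libraries 1 and 4). None of the 6 tested transcription factors of the list was called; their log2 fold changes, given after their values were seen, were -6.3 for Prrx1, -3.63 for Twist1, -2.48 for Snai1, -2.36 for Zeb2, -0.78 for Snai2 and 0.21 for Zeb1. Of 24 matrix proteases and inhibitors, 0 were called; the median was -0.71, and -0.18 without GFP libraries 1 and 4. Timp2, a metalloprotease inhibitor, was at 568, 475, 522 and 512 CPM in DP and 1260, 586, 595 and 859 CPM in GFP (log2 fold change -0.67 with SE 0.2, adjusted p = 0.107 by edgeR; -0.18 without GFP libraries 1 and 4). Ctsb, a lysosomal protease, was at 2640, 1640, 1460 and 2230 CPM in DP and 5870, 1670, 1730 and 1810 CPM in GFP (log2 fold change -0.47 with SE 0.34, adjusted p = 0.542 by edgeR; 0.19 without GFP library 1). The groups were separate for Timp2 and overlapped for Ctsb.

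The level of fibroblast markers was 1.94 to 3.47 in DP and 3.87 to 7.49 in GFP, as the mean log2(CPM + 1) over 20 genes, without overlap. Their summed level was 467 to 740 CPM in DP and 1460 to 13800 CPM in GFP, none was at 0 in either group, all 20 had negative log2 fold changes (median -4.12, against -2.38 without GFP libraries 1 and 4), and 1 was called (Fbln1). Acinar markers were at a level of 1.17 to 2.85 in DP and 3.53 to 9.31 in GFP, with summed levels of 54.2 to 240 CPM in DP and 469 to 35600 CPM in GFP, and none of the 23 at 0. All 23 were lower in DP with 0 called and a median of -6.5, which was -3.93 without GFP libraries 1 and 4. Prss2, a trypsinogen, was at 10.5, 20.1, 2.78 and 5.54 CPM in DP and 121, 249, 34.3 and 4090 CPM in GFP (log2 fold change -6.85 with SE 1.65, adjusted p = 0.0663 by edgeR; -3.78 without GFP library 4), and near-identical trypsin genes may share its reads. Cela2a, an elastase, was at 2.83 to 23.7 CPM in DP and 56.6 to 5110 CPM in GFP (edgeR adjusted p = 0.0711; log2 fold change -7.11, and -4.13 without GFP library 4). Fibroblast and acinar RNA was therefore higher in every GFP library than in every DP library, beside the lower level of the matrix and mesenchymal genes in DP, and its part in those results was not tested.

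**Figure D4:**
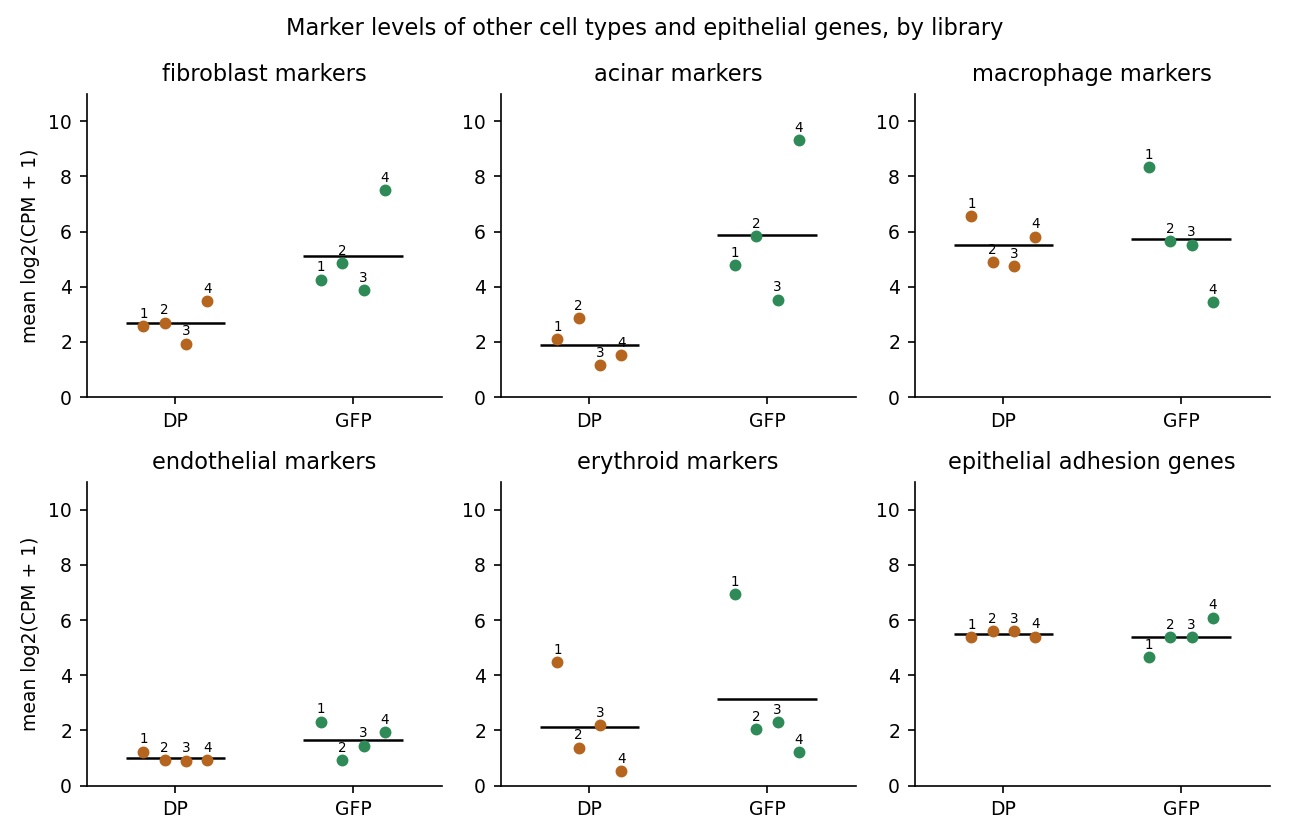
Level of 5 marker lists of other cell types and of epithelial adhesion genes in each DP and GFP library, as the mean log2(CPM + 1) over the list; points carry the library number and lines are group means. Fibroblast and acinar markers are higher in all 4 GFP libraries than in all 4 DP libraries, GFP library 4 is highest for both (7.49 and 9.31), GFP library 1 is highest for macrophage and red blood cell markers (8.34 and 6.93), and epithelial genes overlap.

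Blood cell markers overlapped between the groups. Macrophage markers were at a level of 4.74 to 6.55 in DP and 3.45 to 8.34 in GFP, with summed levels of 2350 to 6930 CPM in DP and 1110 to 26500 CPM in GFP. Lyz2, lysozyme of myeloid cells, was at 2920, 511, 385 and 1330 CPM in DP and 11100, 756, 775 and 141 CPM in GFP, and its log2 fold change of -1.31 (SE 1.23, adjusted p = 0.656 by edgeR) was 1.21 without GFP library 1. The macrophage median of -1.17 was 0.58 without GFP library 1. Neutrophil markers had a median of 0.9, which was 1.62 without GFP libraries 1 and 4 and 1.72 without GFP library 1. S100a9, a calprotectin subunit, was at 93.5, 15.2, 40.9 and 38.5 CPM in DP and 48.3, 7.18, 17.5 and 17.0 CPM in GFP, higher in DP in each number but with overlap (log2 fold change 1.06 with SE 0.9, adjusted p = 0.613 by edgeR; 1.75 without GFP library 1). Lymphocyte markers were at a level of 0.27 to 1.03 in DP and 0.42 to 1.32 in GFP, with a median of -0.62 that was 0.14 without GFP library 1 and 0.25 without GFP libraries 1 and 4. Cd4, a T cell co-receptor that some macrophages also carry, was at 1.34 to 15.1 CPM in DP and 0.061 to 28.1 CPM in GFP (adjusted p = 0.861 by edgeR). Endothelial markers were at 0.9 to 1.23 in DP and 0.93 to 2.32 in GFP, with a median of -1.73, which was -0.34 without GFP libraries 1 and 4. Eng, endoglin, was at 0.617 to 4.32 CPM in DP and 38.7, 1.66, 5.37 and 30.9 CPM in GFP (log2 fold change -3.13 with SE 0.81, adjusted p = 0.0757 by edgeR; -0.67 without GFP libraries 1 and 4). Red blood cell markers were at a level of 0.53 to 4.47 in DP and 1.21 to 6.93 in GFP, and library 1 was the highest of each group. Their median of -2.58 was 1.7 without GFP library 1. Hba-a1, an alpha globin whose copies share reads, was at 412, 13.1, 43.0 and 0.0338 CPM in DP and 3030, 31.0, 75.9 and 1.11 CPM in GFP (edgeR adjusted p = 0.63; log2 fold change 1.7 without GFP library 1). Islet markers were close to 0 in DP, with a summed level of 0.271 to 1.37 CPM, and reached 0.443 to 41.5 CPM in GFP. Only 5 of the 14 passed the expression filter, which they can do through GFP alone. The median over these 5 was -6.28, which was -2.28 without GFP libraries 1 and 4. Ins2, insulin, did not exceed 0.316 CPM in DP and was at 13.0, 0.0, 25.9 and 1.1 CPM in GFP (edgeR adjusted p = 0.119), and 4 of 14 islet markers had no count in DP, against 2 of 14 in GFP. Mesothelial and Schwann cell markers had a median of 0.1.

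Of 28 muscle-associated genes tested, 3 were called lower (Cdh15, Eno3 and Smtn), against 0.294% of all genes tested. Cdh15 and Eno3 were given with the comparison, so their place among the 3 is not an independent result. Of the 28, 23 had negative log2 fold changes. The median was -0.62, which was -0.11 without GFP libraries 1 and 4. Smtn, smoothelin, a cytoskeletal protein of smooth muscle, was at 14.3, 12.4, 16.5 and 36.9 CPM in DP and 164, 90.0, 69.1 and 190 CPM in GFP, with DP library 4 nearest to GFP (log2 fold change -2.68 with SE 0.49, adjusted p = 0.0371 by edgeR; -1.98 without GFP libraries 1 and 4). The other 25 ran from -3.4 for Cnn1, a smooth muscle calponin, to 1.1 for Myh11, the smooth muscle myosin, both named as the ends of that range. Rps6ka2, a kinase downstream of ERK, was at 9.95, 2.43, 4.72 and 6.49 CPM in DP and 82.8, 42.2, 32.0 and 32.6 CPM in GFP (log2 fold change -3.01 with SE 0.53, adjusted p = 0.0368 by edgeR). Aif1l, an actin-binding relative of Aif1, was at 2.99, 3.01, 2.19 and 3.22 CPM in DP and 14.8, 6.9, 10.6 and 23.6 CPM in GFP (log2 fold change -2.29 with SE 0.34, adjusted p = 0.0212 by edgeR; -1.61 without GFP libraries 1 and 4). DP libraries were closely grouped for Aif1l.

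Pkm, Pfkl and Eno1, enzymes of glycolysis, were lower in DP. Of 26 glycolysis and hypoxia genes, 3 were called lower, 0 higher, and 25 had negative log2 fold changes, which ran from -4.85 to 0.24 over the list; the median of -0.74 was -0.64 without GFP libraries 1 and 4. Pkm, pyruvate kinase, was at 2040, 2460, 2250 and 3040 CPM in DP and 4930, 4180, 4570 and 3790 CPM in GFP (log2 fold change -0.84 with SE 0.16, adjusted p = 0.0399 by edgeR). Pfkl, the liver form of phosphofructokinase, was at 421, 621, 569 and 673 CPM in DP and 819, 890, 1150 and 973 CPM in GFP (log2 fold change -0.75 with SE 0.15, adjusted p = 0.0435 by edgeR). Eno1, the enolase of most tissues, was at 612, 807, 719 and 1020 CPM in DP and 1770, 1360, 1490 and 1210 CPM in GFP (log2 fold change -0.88 with SE 0.18, adjusted p = 0.0451 by edgeR), and its near-identical copy Eno1b, which may share its reads and was named after its value was seen, had -0.85. In all 3 enzymes library 4 was the highest of DP, and in Pkm and Eno1 the lowest of GFP. Vegfa, the angiogenic factor, was the only member above 0, at 0.24, and was named after its value was seen.

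Of the genes of cell division, Cdc20, Plk1 and Mcm5 passed the test, all 3 lower in DP. All 24 G2/M genes tested had negative log2 fold changes, with 2 called and a median of -1.34, which was -0.82 without GFP library 1 and -1.47 without GFP library 4. Cdc20, which activates the anaphase-promoting complex, was at 32.3, 25.7, 35.8 and 41.3 CPM in DP and 136, 91.1, 66.1 and 85.5 CPM in GFP (log2 fold change -1.49 with SE 0.28, adjusted p = 0.039 by edgeR). Plk1, a mitotic kinase, was at 22, 10.5, 15.4 and 20.2 CPM in DP and 70.8, 40.9, 32.9 and 44.9 CPM in GFP (log2 fold change -1.48 with SE 0.29, adjusted p = 0.0414 by edgeR). In both genes GFP library 1 was the highest and GFP library 3 the lowest of GFP, and the groups were separate. The 4 DP libraries lay below the 4 GFP libraries in 4 of 24 G2/M genes and 7 of 27 DNA replication genes. Of all genes tested, 4.58% did so. The G2/M level was 2.51 to 3.28 in DP and 3.32 to 4.71 in GFP. Of 27 DNA replication genes, 1 was called and 26 had negative log2 fold changes, with a median of -0.76, which was -0.5 without GFP library 1. Mcm5, a subunit of the replicative helicase, was at 63.5, 65.9, 83.8 and 55.3 CPM in DP and 225, 146, 165 and 99.3 CPM in GFP (log2 fold change -1.24 with SE 0.25, adjusted p = 0.0434 by edgeR). Cdc20 overlaps Elovl1, whose reads cannot be told apart there. Chosen after their values were seen, the called genes outside the lists also held Cdca5, Pimreg and Gtse1, genes of mitosis, at log2 fold changes of -1.58, -1.71 and -1.8, and the histone genes H2ac23, H2ac21 and H1f5 at -1.57, -1.69 and -1.95. Histone genes have near-identical copies that may exchange reads.

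Promoter sequence is shown for both called G2/M genes, since the CCAAT box is known as an element of G2/M promoters, and for the single called gene whose promoter held the core of the TCF/LEF motif that drives the GFP reporter. Each line is the 250 bases upstream of the RefSeq start of the gene, GRCm38.p6, read 5′ to 3′ on the strand of the gene. They are Cdc20 at chr4:118437344-118437593, minus strand, Plk1 at chr7:122159185-122159434, plus strand, and Aif1l at chr2:31950053-31950302, plus strand. Capitals mark CCAAT or its reverse complement ATTGG in Cdc20 and Plk1, and ATCAAAG or its reverse complement CTTTGAT in Aif1l.
Cdc20: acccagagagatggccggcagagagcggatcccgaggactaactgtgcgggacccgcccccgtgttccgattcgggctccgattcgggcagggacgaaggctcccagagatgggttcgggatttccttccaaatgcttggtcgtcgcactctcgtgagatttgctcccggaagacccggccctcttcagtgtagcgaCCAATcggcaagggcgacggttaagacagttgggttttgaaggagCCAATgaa
Plk1: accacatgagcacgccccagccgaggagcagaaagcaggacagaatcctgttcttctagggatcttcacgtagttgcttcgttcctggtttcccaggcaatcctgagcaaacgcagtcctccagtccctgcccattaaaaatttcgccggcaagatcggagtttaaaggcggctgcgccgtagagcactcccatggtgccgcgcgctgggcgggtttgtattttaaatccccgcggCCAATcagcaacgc
Aif1l: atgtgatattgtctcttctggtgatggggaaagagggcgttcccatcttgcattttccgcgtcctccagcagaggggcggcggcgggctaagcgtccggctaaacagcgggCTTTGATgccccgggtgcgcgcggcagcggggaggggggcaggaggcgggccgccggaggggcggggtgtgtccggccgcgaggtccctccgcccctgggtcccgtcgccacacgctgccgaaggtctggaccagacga

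Both CCAAT boxes of Cdc20 and the single box of Plk1 lay in the part nearest the start of the gene. On either strand, CCAAT was found in the 250 bases of 37.5% of 27025 genes in the promoter table, of 17 of 20 G2/M genes with a promoter there (85.0%), of 15 of 22 DNA replication genes (68.2%), of 21 of 34 genes called lower (61.8%) and of 5 of 15 called higher (33.3%). It was also found in 55.0% of 20 classical PDAC genes, 41.7% of 24 glycolysis and hypoxia genes and 29.4% of 17 WNT targets. The TCF/LEF core ATCAAAG was found in 3.72% of all genes, in 1 of 34 called lower, Aif1l, and in 0 of 15 called higher. Its share was 11.8% of WNT targets, 10.0% of G2/M genes and of classical PDAC genes, 4.17% of glycolysis and hypoxia genes and 0 of 22 DNA replication genes. ACGTG, the core of the hypoxia element, was found in 18.5% of all genes, in 26.5% of genes called lower and in 13.3% called higher. Its share was 58.3% of glycolysis and hypoxia genes, 41.2% of WNT targets, 31.8% of DNA replication genes, 30.0% of G2/M genes and 15.0% of classical PDAC genes. The motifs were searched one by one, each with its reverse complement (CACGT for ACGTG), so matches of different motifs may share bases. Of the called genes, 15 of 24 higher and 34 of 47 lower had a promoter in the table. A match of letters is a description of these windows and not a bound site.

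Few other programmes held a called gene, and all of these were lower in DP. Slc7a5, the large neutral amino acid transporter and a target of the amino acid response factor ATF4, was at 53, 52.8, 38.6 and 46.9 CPM in DP and 172, 77.1, 117 and 127 CPM in GFP (log2 fold change -1.37 with SE 0.24, adjusted p = 0.0368 by edgeR), and was 1 call of 25 ATF4 genes with a median of -0.49. Etv4, an ETS factor induced by ERK signalling, was at 16.7, 22.2, 16.0 and 17.9 CPM in DP and 66.2, 31.4, 31.7 and 57.9 CPM in GFP (log2 fold change -1.36 with SE 0.28, adjusted p = 0.0485 by edgeR), 1 call of 20 RAS-ERK genes with a median of -0.18. Nrarp, a Notch target and feedback inhibitor, was at 19.0, 21.7, 16.4 and 28.6 CPM in DP and 38.8, 36.6, 57.8 and 54.0 CPM in GFP (log2 fold change -1.13 with SE 0.23, adjusted p = 0.0451 by edgeR), 1 call of 15 Notch genes with a median of -0.21. In each of these 3 genes every DP library was below every GFP library. The log2 fold change of Etv4 ran from -1.5 to -0.78 over 20 alternative settings. Of 14 S100 genes S100a4 alone was called, with a median of 0.11. Of 23 TGF-beta pathway genes 0 were called, with a median of -0.32, which was -0.16 without GFP libraries 1 and 4. Ltbp3, which binds latent TGF-beta, was at 626 to 991 CPM in DP and 727 to 1310 CPM in GFP (log2 fold change -0.32 with SE 0.19, adjusted p = 0.425 by edgeR), and Id2, a target of BMP signals, had -0.02 (SE 0.26, adjusted p = 0.976 by edgeR).

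The other lists had no called member and medians within 0.3 of 0. The median was 0.21 for 21 genes of MHC class I and peptide loading, 0.18 for 13 of EGFR receptors and ligands, 0.18 for 25 of endoplasmic reticulum chaperones, 0.15 for 27 of the interferon response, 0.11 for 20 targets of p53 and 0.06 for 28 of the respiratory chain. It was 0.04 for 18 heat shock chaperones, -0.05 for 25 genes of cholesterol and fatty acid synthesis, -0.08 for 24 of NRF2, -0.09 for 30 of NF-kB and inflammation, -0.12 for 13 basal and squamous genes, -0.17 for 22 immediate-early genes, -0.23 for 24 of MYC and ribosome biogenesis and -0.26 for 19 YAP and TEAD targets.

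With the library number as a block, which compares DP with GFP within a number, 791 genes passed (4.96% of genes tested), 321 higher in DP (2.01%) and 470 lower (2.94%), and all 71 first calls were among them. The block on the 8 DP and GFP libraries alone gave 37 calls, 1 higher and 36 lower, which held 8 of the 71. Same-numbered DP and GFP libraries deviated together in numbers 1, 3 and 4 (correlations of 0.36, 0.24 and 0.22 over 15963 genes). In number 2 they hardly did (0.071), and DP library 2 was closer to GFP library 3 (0.146). Every same-numbered pair across the 4 groups had a positive correlation (0.058 to 0.416), but the labels state no pairing. Different-numbered DP and GFP libraries had correlations from -0.251 to 0.146. The pairing is therefore not established, and it is not excluded either. No fit with the block left out a single library. Under the block the secretory and absorptive lists had more calls: 12 of 29 classical PDAC genes were higher and 1 was lower (Spink1), 9 of 21 mucus genes were higher and 0 lower, and 8 of 24 enterocyte genes were higher and 1 lower. Among the largest rises called only with the block, Clca1, a secreted goblet cell protein, was at 57.9, 17.3, 40.4 and 15.1 CPM in DP and 1.32, 3.97, 7.53 and 3.46 CPM in GFP (edgeR adjusted p = 0.0132 with the block and 0.0512 without). Tff3, a trefoil peptide of goblet cells, was at 67.2, 26.4, 59.9 and 11.9 CPM in DP and 2.73, 7.17, 9.15 and 2.8 CPM in GFP (edgeR adjusted p = 0.013 and 0.0744). Tspan1, an epithelial tetraspanin, Sult1b1, a sulfotransferase of gut and liver, and Scml4, a Polycomb-related protein, had edgeR adjusted p-values of 0.0197, 0.0122 and 0.0197 with the block. In these 5 genes the lowest DP library was above the highest GFP library, which the rule that chose them required. None of the 5 was called with the block on the 8 libraries alone, where the edgeR adjusted p was 0.117 for Clca1, 0.087 for Tff3, 0.0844 for Tspan1, 0.105 for Sult1b1 and 0.111 for Scml4.

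Glycolysis and G2/M genes also had more calls under the block, 18 of 26 and 11 of 24, all lower in DP. The counts in this paragraph stand beside 2.94% of all genes tested called lower with the block and 2.01% called higher. Also lower under the block were 13 of 20 fibroblast markers, 9 of 27 mesenchymal genes, 7 of 25 ATF4 genes, 7 of 24 matrix proteases and inhibitors (with 1 higher), 4 of 27 DNA replication genes and 3 of 23 acinar markers. Of 24 NRF2 genes 6 were called higher and 0 lower with the block. Among them, named after their values were seen, Gsta4, a glutathione transferase, was at 992, 1170, 1150 and 1230 CPM in DP and 236, 769, 799 and 403 CPM in GFP (edgeR adjusted p = 0.0176 with the block), and Gsta1, Gsta2 and Gsta3, whose sequences are alike and may share reads, had 0.0216, 0.0246 and 0.0303. The largest falls called only with the block were low in DP and highest in GFP library 4: Spink1, a trypsin inhibitor of acinar cells, reached 52.4 CPM there and 0.192 CPM at most in DP (edgeR adjusted p = 0.0343), Mfap4 275 and 1.26 CPM (0.0216), Fxyd6 62.2 and 0.587 CPM (0.00986), Adamts2 532 and 1.32 CPM (0.0246) and the acinar lipase Pnliprp1 1470 and 11.1 CPM (0.0473). Mfap4 is a microfibril protein and Adamts2 a procollagen protease, both of fibroblasts. Wnt10a was called lower (edgeR adjusted p = 0.0103) and Tnfrsf19 too (0.0353), whereas Porcn was not (0.119). On the 8 libraries alone the block gave 0.0962 for Wnt10a and 0.145 for Tnfrsf19, and of the 5 falls it kept Mfap4 and Fxyd6 (0.0447 each) and not Spink1 (0.0644), Adamts2 (0.143) or Pnliprp1 (0.117). Without GFP libraries 1 and 4 the block gave 179 calls, 42 higher and 137 lower, which held 40 of the 71.

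The other comparison across the mScarlet gate, mScarlet with DN, compared none of the same libraries. Both comparisons came from 1 fit on all 16 libraries with a shared estimate of the spread, so calls in both are not independent. It called 159 genes (0.996% of genes tested), 65 higher (0.407%) and 94 lower (0.589%). Of the 71 genes of DP vs GFP, 39 were also called in mScarlet vs DN in the same direction (54.9% of the 71 and 24.5% of the 159), and 0 in the opposite one. Of the 71, 70 had the same sign there, as did 68.5% of all genes tested. Agr2 had a log2 fold change of 2.0 in DP vs GFP and 2.02 in mScarlet vs DN (SE 0.41 in both, edgeR adjusted p = 0.0451 and 0.03). Eno3 had -2.53 and -2.91 (edgeR adjusted p = 0.00502 and 0.0004) and Cdh15 -4.22 and -2.66 (edgeR adjusted p = 0.0212 and 0.0433). These marker genes passed the test on both sides of the GFP gate. They were given with the comparison, so this is not an independent result. Nuggc was the exception in sign, with 0.609 CPM in mScarlet and 0.873 CPM in DN, a difference of -0.52 on the log2 scale (adjusted p = 0.867 by edgeR).

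**Figure D5:**
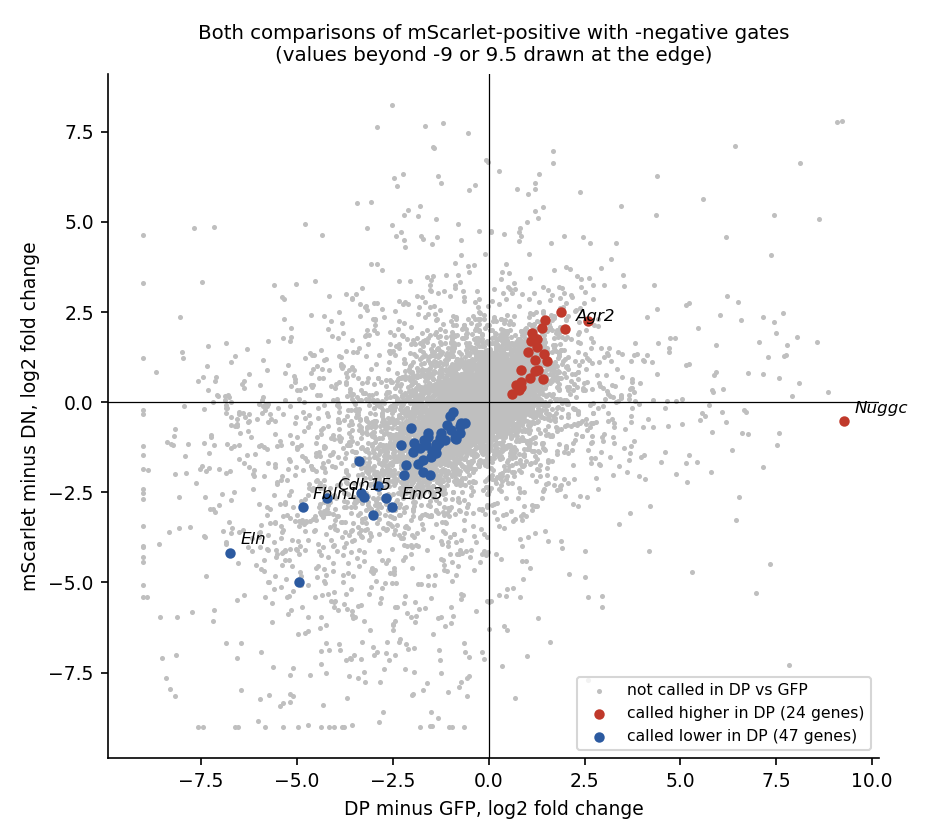
Log2 fold change of each tested gene in DP vs GFP (x axis, DP minus GFP) and in mScarlet vs DN (y axis, mScarlet minus DN), with genes called in DP vs GFP in red (24 higher) and blue (47 lower) and 6 genes named; values beyond the range are drawn at the edge. All called genes but Nuggc have the same sign on both axes.

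Some genes were called in DP vs GFP alone, but no difference between the comparisons was called. Tmem117 was 1.41 higher on the log2 scale in DP vs GFP and 0.63 in mScarlet vs DN (adjusted p = 0.263 by edgeR), Krt20 1.28 and 0.88 (edgeR adjusted p = 0.0906), and Apcdd1 -3.37 and -1.64 (edgeR adjusted p = 0.197). The direct test of the difference between both comparisons called 0 genes by edgeR (534 at an unadjusted p under 0.05), 0 with the block (771) and 0 by limma voom with quality weights, and 39 by DESeq2. The differences were 0.79 for Tmem117, 0.4 for Krt20 and -1.74 for Apcdd1, none past the threshold. Porcn was called higher in mScarlet than in DN (log2 fold change 1.14, edgeR adjusted p = 0.03) and had 0.6 in DP vs GFP, and the difference of -0.53 between the comparisons did not pass either.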

How the data were processed

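Bulk RNA was sequenced from sorted cells; the labels' protocols name a micro-scale column kit and PCR-amplified full-length cDNA for low input. The authors deposited raw counts per Entrez gene; per the submitters' processing notes STAR, DESeq2 1.24.0 and GRCm38 (mm10) were used, without their roles. No source used here gives the read counter, the annotation or any use of strand. Of 24467 identifiers, 24437 matched a RefSeq GRCm38.p6 symbol; the other 30 held 0.723% to 1.931% of a library's counts. Replicates of a group differed by more than sampling noise (chi-square per degree of freedom of at least 91.79), so each library is 1 replicate.

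Genes were tested with edgeR 4.0.16 (R 4.3.3, quasi-likelihood) on all 16 libraries with group as the only term, the expression filter by group, TMM scaling and Benjamini-Hochberg adjustment over 15963 genes, with a threshold of 0.05. The SE is the absolute log2 fold change over the square root of F. The floor of 3 counts covers counting error only, and reads carry no molecular identifiers. The SE comes from the quasi-likelihood fit and also holds the spread between libraries. Per-library list levels use a pseudocount of 1 CPM. The tests were run on simulated counts with known changes, drawn with independent libraries and no outlying library. That check does not cover the dependence on single libraries seen here. Members and lists were chosen with earlier results of these data known. Named genes were first 11 fixed genes. Per direction, they include the 10 most changed called genes with no overlap and at least 10 CPM in the higher group. By the same limits, 5 per direction were taken from genes called only with the library number as a block. Each list added up to 3 called or its 2 most abundant members. These were left out where a list without calls had a median within 0.3 of 0 (a limit set after seeing the data). A gene named by no part of this rule is said to be chosen after its values were seen. The alternatives were DESeq2 1.42.0, limma 3.58.1 voom with quality weights, the block, the 8 libraries alone, 3 other scalings, 2 other filters and libraries left out. The block without GFP libraries 1 and 4 was added after seeing the data. Reporter sequences were not analysed here.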

Additional observations from a re-analysis of the deposited data

Results flagged for a closer look

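In groups of 4 libraries, a value that stood apart from the other 3 by more than Dixon's 95% limit was looked at again. Of 246 groups examined 15 were noted (6.1%), where chance gives about 1 in 20. DP library 4 stood apart most often. In it Tnfrsf19 was at 1.3 CPM and Fxyd6 at 0.587 CPM, against 0 in the other DP libraries, Tspan1 was at 9.82 CPM, against 20.3 to 22.9, and Cdhr2 was at 117.0 CPM, against 274 to 299. Its glycolysis genes were at a level of 8.0, against 7.19 to 7.3, and its muscle-associated genes at 3.23, against 2.93 to 2.98 (mean log2(CPM + 1), as for all lists here). In DP library 1 Itga5 was at 59.3 CPM, against 83.0 to 88.5 in the others, and endothelial markers were at 1.23, against 0.9 to 0.92. DP library 2 had heat shock chaperones at 5.53, against 5.75 to 5.76, and DP library 3 had basal and squamous genes at 1.93, against 2.05 to 2.07.

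In GFP library 1, Ctsb, a lysosomal protease abundant in macrophages, was at 5870 CPM, against 1670 to 1810 CPM in the other GFP libraries, and YAP and TEAD targets were at 5.04, against 5.46 to 5.48. Macrophage markers were also highest in that library, at 8.34, against 3.45 to 5.64, and their part in the value of Ctsb was not tested. In GFP library 4, Cdhr2 was at 59.2 CPM, against 121 to 140, heat shock chaperones were at 6.27, against 5.73 to 5.82, and S100 genes at 6.06, against 5.52 to 5.59.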

How the results depend on the processing

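None of the 35 named called genes changed direction in any of the 20 alternatives. Their DP and GFP libraries did not overlap, so a reversal was hardly possible. The medians of 33 of 44 lists kept their sign. The number of calls did change: it was 1005 with DESeq2, 31 with limma voom and quality weights, 107 with RLE scaling, 117 with the filter of 1 CPM in 4 libraries and 0 with the 8 libraries alone (edgeR, 1821 at an unadjusted p under 0.05). Total counts alone gave 48 calls with 45.8% higher, against 33.8% with TMM. Leaving out 1 library gave 0 to 323 calls, and leaving out GFP libraries 1 and 4 gave 1. With the replicate number as a block there were 791 calls, 37 with the block and the 8 libraries alone, and 179 with the block and without GFP libraries 1 and 4. The numbers did not meet the criterion of pairing, a correlation above 0.1 in every pair, although all 24 pairs of same-numbered libraries across the 4 groups were positive (0.058 to 0.416). For the difference between both comparisons DESeq2 called 39 genes and each other setting that holds all 4 groups 0; it could not be fitted on the DP and GFP libraries alone.

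Reversals were seen in 11 named genes that were not called, and the cause was not tested. Axin2 turned to 0.35 with voom, 4.12 without GFP libraries 1 and 4 and 0.57 with the block as well; Cd4 to 0.62 with voom, 0.64 with the block on 8 libraries, 1.32 and 0.1; Cd14 to 0.09 with the block on 8 libraries, 0.01 with 8 libraries alone and with no filter, 0.02 with upper quartile scaling, 0.05 with total counts, 0.04 and 0.12. Without GFP libraries 1 and 4, Id2 turned to 0.11 (0.05 with total counts), Krt8 to -0.03 (-0.02 with the block), Elf3 to -0.08, Ctsb to 0.24 (0.07 with the block), Lyz2 to 0.77, and Hba-a1 and Hbb-bt to 1.15. With single libraries left out, the log2 fold change ran from -1.53 to 1.73 for Axin2, -1.99 to 1.87 for Cd4, -0.21 to 0.28 for Cd14, -0.37 to 0.12 for Id2, -0.64 to 0.19 for Ctsb, -2.11 to 1.21 for Lyz2, -5.39 to 1.7 for Hba-a1, -5.31 to 1.7 for Hbb-bt and -0.05 to 0.98 for Cd79b. Islet markers gave no median at the filter of 1 CPM. Levels below the floor in some libraries, as of Axin2 and Lef1, limit what depth can show.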

Other observations

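Chosen after their values were seen, some called genes outside the lists were among the most abundant. Gsto1, a glutathione transferase of the omega class, averaged 2460 CPM in DP and 1360 CPM in GFP (log2 fold change 0.85, edgeR adjusted p = 0.0371), and Tm4sf4, a tetraspan protein of liver and gut epithelium, 1880 CPM in DP and 1230 CPM in GFP (0.61, edgeR adjusted p = 0.0451). Lgals1, galectin-1, which stromal cells also make, averaged 791 CPM in DP and 1950 CPM in GFP (-1.3, edgeR adjusted p = 0.0368). The tubulin genes Tuba1a (-1.38) and Tuba1b (-0.75) were both called lower, and their near-identical sequences may share reads. Slc26a2, a sulfate transporter of intestinal epithelium, averaged 123 CPM in DP and 60.9 CPM in GFP (1.02, edgeR adjusted p = 0.0451), and Ms4a8a 145 and 67.7 CPM (1.1, edgeR adjusted p = 0.0238).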
